A study of Mus musculus with 12 samples.

Results

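Gene expression in the bone marrow of irradiated mice that then received parathyroid hormone (PTH) was compared with that in mice given neither, to ask what was still changed from baseline when PTH followed irradiation. The comparison takes 6 of the 12 arrays of the study, 3 labelled irradiated PTH and 3 labelled nonirradiated vehicle, and describes every gene measured. Arrays were assigned to these groups by their labels alone, without any expression value. All mice were of strain B6, with no allele or transgene named, and were 16 days old when the long bones were flushed with Trizol and total RNA was taken from the whole marrow flush. At an age of 10 days the irradiated mice received a sub-lethal dose, split into 2 fractions of 310 cGy each, and PTH was given from 24 hours later, on days 11 to 15. The control mice were not irradiated and received vehicle over the same 5 days. The other two groups, irradiated vehicle and nonirradiated PTH, hold 3 arrays each and are used here only to estimate the spread and to set values side by side. Whether an array stands for 1 mouse or a pool is not in the labels, and the p-values below therefore reflect variation among these arrays that could be technical.

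PTH acts through the receptor Pth1r on osteoblasts, osteocytes and marrow stromal cells, raises cyclic AMP in them, and builds bone when given intermittently. Ionising radiation breaks DNA, activates p53 and kills dividing cells, and among marrow cells the B lymphocyte lineage is known to be one of the most sensitive. Marrow that has lost blood-forming cells is known to gain fat cells and to show inflammatory and interferon-responsive gene expression.

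Values are log2 expression as the authors deposited them, listed for arrays 1 to 3 of a group in that order, and a difference of 1 on this scale is a 2-fold change. A gene is said to have risen or fallen, or is called, where its adjusted p in limma was under 0.05 over the 19938 genes tested. Control array 3 and irradiated PTH array 3 had narrower interquartile ranges (2.86 and 2.88) than the other 10 arrays (3.13 to 3.25). Irradiated PTH array 3 also stood apart on the first principal component of the 12 arrays, at 66.3 against -32.4 to 24.8, on an axis that held 39.6% of the variance. Xist and Kdm5d, which mark female and male tissue, gave a female pattern in 1 of 3 irradiated PTH arrays and in 0 of 3 control arrays. The pattern was female in all nonirradiated PTH arrays and, among the irradiated vehicle arrays, in array 1 alone. The tissue label held against its markers: Ptprc, the common leukocyte antigen, lay at 10.58 or above on all 6 arrays, and the mean of 13 marrow markers lay between 10.2 and 10.6 in the control arrays and between 9.68 and 10.5 in the irradiated PTH arrays.

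The irradiated PTH marrow differed from the control marrow in 339 of the 19938 genes, which is 1.70% of those tested. Of these genes 111 rose (0.557%) and 228 fell (1.14%). The difference was at least 2-fold in 184 of them, 54 higher and 130 lower. All 339 had groups that did not overlap, against 2455 genes with such a separation among all tested (12.3%; 5.53% higher and 6.78% lower). The median difference over all genes was -0.0016. The 12 largest falls included B lymphocyte genes, the cytokine gene Il1b and the lectin receptor gene Clec4d. The 12 largest rises included a chemokine, an acute phase gene, the lipase gene Lipg and genes of matrix and interferon response. The number of calls depended on single arrays. It was 159 without control array 2 (54 rises, 105 falls) and 182 without irradiated PTH array 1 (56 rises, 126 falls), against 374 without irradiated PTH array 3, when 187 genes rose and 187 fell. Rises numbered 51 without control array 3 and 72 without irradiated PTH array 2. Centring each array on housekeeping genes moved the median of all genes to -0.27 and gave 31 rises and 397 falls, so a median or difference between 0 and that shift turned negative. With only the 6 arrays compared in the fit 65 genes were called, and with array weights 541. Among the called genes described in the rest of this section, the calls of Abhd6, Plin1, Scd1, Angpt1, Rgs2, Steap4 and Oasl2 were lost with a term for sex. Those of Bach2, Ebf1, Dntt, Plin1, Rsad2, Ifih1, Irgm1, Marco, Ear6, Kit, Angpt1, Dmp1, Il6 and Steap4 were lost without both narrow-range arrays. Housekeeping centring removed those of Fabp4, Cidec, Plin1, Scd1, Rsad2, Ifih1, Irgm1, Eda2r, Hmox1, Marco, Ear6, Dmp1, Il6 and Steap4. With only the 6 arrays compared, those of Abhd6, Cish, Bach2, Ebf1, Dntt, Cxcr5, Cd8b1, Ifit1, Oasl2, Rsad2, Ifih1, Irgm1 and Ifi209 were lost. So were those of Siglech, Ly6d, Car1, Csf3r, Mmrn1, Kit, Angpt1, Ear6, Hmox1, Marco, Cidec, Plin1 and Scd1. Mmp13, Eda2r, Osmr, Il6, Steap4 and Rgs2 also lost their calls in that fit.

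**Figure D1:**
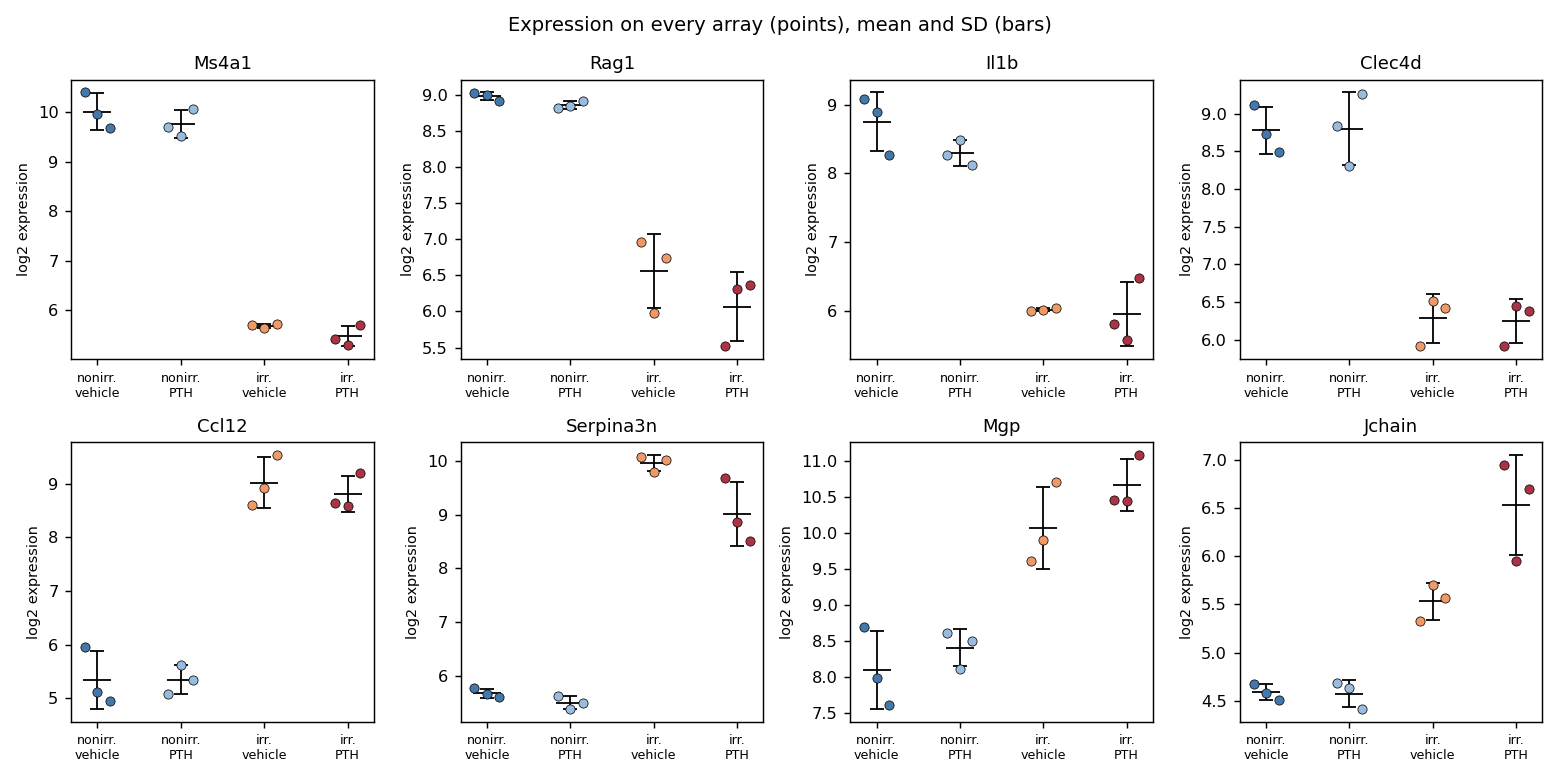
Log2 expression (vertical axis) of 8 genes on each of the 12 arrays, by group (horizontal axis), with the group mean and SD as bars. For all 8 genes the 3 irradiated PTH arrays lie wholly below (Ms4a1, Rag1, Il1b, Clec4d) or wholly above (Ccl12, Serpina3n, Mgp, Jchain) the 3 nonirradiated vehicle arrays.

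The largest fall was in Ms4a1, the gene of CD20 on the surface of B cells. It was at 10.40, 9.97 and 9.68 in the control arrays and at 5.42, 5.31 and 5.70 in the irradiated PTH arrays. The 2 groups lay far apart, with a gap many times the spread within either. Ms4a1 fell by 4.54 on the log2 scale (SE 0.19, limma adjusted p = 4.38e-07). No fold is given, because the irradiated PTH mean of 5.48 lay below 5.57, the cutoff used here for dim genes. Rag1, which cuts DNA during antigen receptor assembly, was at 9.029, 8.997 and 8.924 in the control arrays and at 5.52, 6.32 and 6.36 after irradiation and PTH. The control arrays were nearly identical and every irradiated PTH array lay below them, and Rag1 fell by 2.92 (SE 0.25, limma adjusted p = 1.61e-04). Differences between -2.87 and -2.56 were seen in 6 other genes of B cells or antigen presentation, all of which fell: Spib (an Ets transcription factor of the B lineage), Ikzf3 (the lymphoid factor Aiolos), Cd72 (an inhibitory coreceptor), Bach2 (a repressor in lymphocytes), Niban3 (a B cell protein) and H2-Ob (which restrains peptide loading of MHC class II).

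The myeloid genes Il1b and Clec4d stood among the largest falls as well. Il1b, the inflammatory cytokine interleukin-1 beta, was at 9.08, 8.90 and 8.27 in the control arrays and at 5.80, 5.57 and 6.48 in the irradiated PTH arrays. The groups did not overlap, and Il1b fell by 2.80 (SE 0.24, limma adjusted p = 1.55e-04). Clec4d, a C-type lectin receptor of myeloid cells, was at 9.11, 8.73 and 8.49 in the control arrays and at 5.91, 6.44 and 6.38 in the irradiated PTH arrays. It fell by 2.53 (SE 0.26, limma adjusted p = 4.31e-04), again with no overlap. Cpm, a membrane carboxypeptidase, fell by 3.29 (SE 0.34) from 8.32, 9.19 and 8.97 to 4.94, 6.37 and 5.31. Its irradiated PTH mean of 5.54 lay below the cutoff for dim genes. Iftap fell by 2.88 on the brighter of its probe sets, while the dimmer one, at 5.89 in controls and 5.87 after irradiation and PTH, differed by -0.02. The 12 largest falls were called in every one of the 12 fits that left out 1 array.

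Ccl12, a chemokine that attracts monocytes, rose most. Its values were 5.95, 5.11 and 4.95 in the control arrays and 8.64, 8.58 and 9.19 in the irradiated PTH arrays. The 3 irradiated PTH arrays lay close together and all above the controls, a rise of 3.46 on the log2 scale (SE 0.29, limma adjusted p = 1.55e-04) from a control mean of 5.34, below that cutoff for dim genes. Serpina3n, a secreted protease inhibitor of the acute phase response, was at 5.77, 5.66 and 5.61 in the control arrays and at 9.67, 8.86 and 8.51 in the irradiated PTH arrays. It rose by 3.33 (SE 0.23, limma adjusted p = 6.34e-05), although the irradiated PTH arrays themselves spread over more than 1 log2 unit. Lipg, the endothelial lipase, rose by 3.08 (SE 0.36) from 6.60, 5.72 and 4.86 to 8.98, 9.18 and 8.26.

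Mgp encodes matrix Gla protein, an inhibitor of calcification made by chondrocytes and vascular cells. It was at 8.692, 7.995 and 7.622 in the control arrays and at 10.47, 10.46 and 11.09 in the irradiated PTH arrays, and rose by 2.57 (SE 0.31, limma adjusted p = 0.00128). The lectin receptor Clec4n (Dectin-2) rose by 2.34 (SE 0.21), from 5.73, 5.51 and 5.70 to 7.82, 8.01 and 8.13. Clec4n and Clec4d thus moved in opposite directions, each without overlap between groups. Cish, a feedback inhibitor of cytokine signalling through STAT5, rose by 1.77 (SE 0.30), a call lost without control array 3. Ankrd36 rose by 2.78 (2.00 on its other probe set), Ifi205 by 2.55, Apol10a by 1.95 and the fatty acid binding protein gene Fabp5 by 1.87. Abhd6, a monoacylglycerol hydrolase, was at 7.17, 7.16 and 6.97 in the control arrays and at 10.17, 9.08 and 7.72 in the irradiated PTH arrays. Its rise of 1.89 (SE 0.43, limma adjusted p = 0.0483) was called in 1 of the 12 fits that left out an array, the one without irradiated PTH array 3.

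These differences were then set beside those of irradiated mice without PTH. Irradiated vehicle marrow was set against the same 3 control arrays, so the 2 sets of differences share their controls and are given only side by side. In that comparison 442 genes were called (2.22%), 241 higher and 201 lower. The direct test of irradiated PTH against irradiated vehicle called 0 of 19938 genes in limma (0.00%), with 759 genes at an unadjusted p under 0.05 and no adjusted p below 0.844. In nonirradiated mice, PTH against vehicle likewise gave 0 calls in limma, with 356 genes at an unadjusted p under 0.05. All nonirradiated PTH arrays gave the female pattern (Xist 11.19 to 11.69) and no nonirradiated vehicle array did (Xist 5.48 to 5.75). Sex and PTH therefore cannot be told apart in that contrast. Arrays were simulated with independent noise and 200 genes changed in the irradiated PTH group, which was then tested against the nonirradiated vehicle group. A log2 change of 0.5 was called in 11.8% of those genes, 1 in 66.9% and 2 in 95.8%, so smaller differences could be missed at this number of arrays. These rates belong to that contrast with 200 changed genes. They do not give the share of changes missed in the contrasts with 0 calls, which were not simulated.

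Ms4a1 differed from control by -4.54 with PTH and by -4.33 without it, and Ccl12 by 3.46 and 3.68. The irradiated groups themselves differed by -0.21 for both genes (SE 0.19 and 0.29, limma adjusted p = 0.844 and 0.88). Serpina3n lay 3.33 above control with PTH and 4.28 above it without, and the irradiated groups differed by -0.95 (SE 0.23, unadjusted p = 0.00151, limma adjusted p = 0.844). Jchain, which links immunoglobulin units into polymers, showed the opposite order. It was at 4.67, 4.58 and 4.51 in the control arrays, at 5.33, 5.71 and 5.56 in the irradiated vehicle arrays and at 6.94, 5.95 and 6.70 in the irradiated PTH arrays. The control and irradiated vehicle means of Jchain, 4.59 and 5.53, lay below the cutoff for dim genes. The 3 groups did not overlap; the rise over control was 1.94 with PTH (SE 0.21, limma adjusted p = 6.15e-04) and 0.94 without it, and the irradiated groups differed by 0.997 (SE 0.21, unadjusted p = 5.61e-04, limma adjusted p = 0.844).

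**Figure D2:**
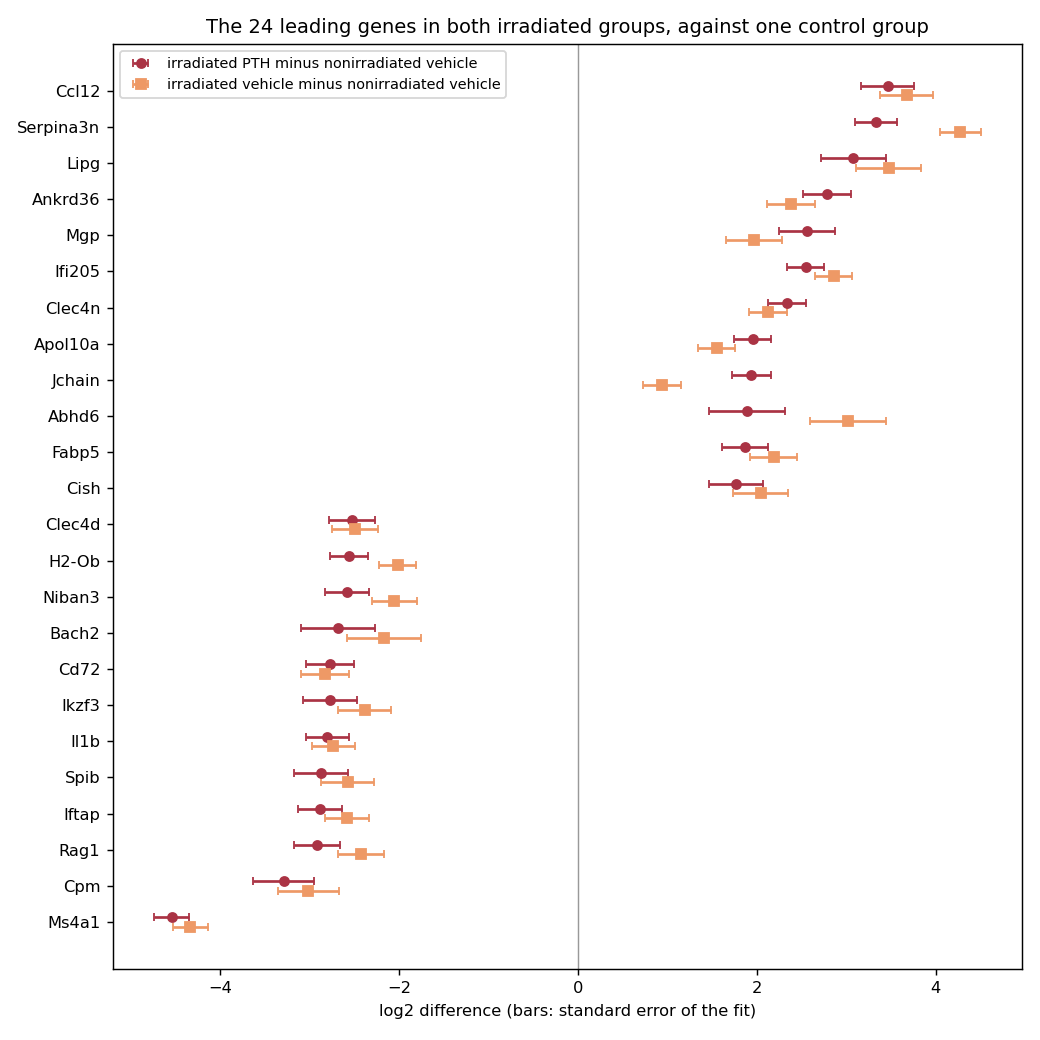
Log2 difference (horizontal axis) of the 12 genes that rose most and the 12 that fell most between irradiated PTH and nonirradiated vehicle marrow (circles), with the same genes in irradiated vehicle marrow (squares). Bars are standard errors of the fit, both sets use the same 3 control arrays, and Serpina3n (3.33 and 4.28) and Jchain (1.94 and 0.94) show the 2 sets apart in opposite orders.

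B lymphocyte genes fell as a group. Fewer B cells in the flush and less RNA per B cell cannot be told apart in these whole-marrow samples, and the same holds for every cell type below. Of 20 genes of B cell precursors, 11 fell and 0 rose, with a median difference of -1.56, beside -0.0016 over all genes and 1.14% of all genes that fell. Of 18 genes of mature B cells, 14 fell and 0 rose, with a median of -1.57. The mean of the precursor list was 8.87, 9.26 and 9.06 in the control arrays and 7.55, 7.92 and 7.73 in the irradiated PTH arrays, and that of the mature list was 8.19, 8.45 and 7.96 against 6.48, 6.65 and 6.51. Neither list's mean overlapped between the groups. Without any 1 array, 9 to 12 of the precursor genes and 11 to 14 of the mature genes fell.

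Among the precursor genes, the receptor for the growth factor interleukin-7 (Il7r) was at 10.26, 9.89 and 9.86 in the control arrays and at 7.35, 7.66 and 7.62 in the irradiated PTH arrays, and fell by 2.46 (SE 0.20). Cd79a and Cd79b, the signalling chains of the B cell receptor, fell by 2.46 and 2.33. The lineage factors Pax5 and Ebf1 fell by 2.25 and 1.55, and the adaptor Blnk by 1.97. Rag2 and Dntt, which act with Rag1 in assembling receptor genes, fell by 1.70 and 1.58. The calls of Ebf1 and Dntt were lost without control array 2 or 3 or irradiated PTH array 1. The precursor genes were not equally affected. Vpreb1 and Igll1, which form the surrogate light chain of the pre-B cell receptor, differed by -0.45 and -1.02 (limma adjusted p = 0.777 and 0.066), and Vpreb1 spread from 7.32 to 9.52 over the irradiated PTH arrays. Cd24a (0.19) and Rgcc (0.37) were not below control.

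Among mature B cell genes, Fcrla, an Fc receptor-like protein made inside B cells, fell by 2.41 and the inhibitory receptor Cd22 by 2.13. Cd22 was at 8.67, 9.33 and 8.59 in the control arrays and at 6.69, 6.71 and 6.79 in the irradiated PTH arrays, the tighter of the groups. Falls were also called in the IgM receptor Fcmr (-1.94), the kinase Blk (-1.78) and the chemokine receptor Cxcr5 (-0.97). Cxcr5 was dim, with a control mean of 4.98 and an irradiated PTH mean of 4.01. Tnfrsf13c, the receptor for the survival factor BAFF, lay 0.60 above control but was not called (limma adjusted p = 0.336). The letters TCCCNNGGGA, a motif bound by Ebf1, were searched on both strands of the 250 bases before each gene's start. They were present for 0 of 17 precursor genes with a promoter sequence and 1 of 13 mature B cell genes (7.69%), against 247 of 27025 genes (0.914%). The match was in Cd22, shown because it is the only list member that holds these letters, and they are in capitals in the RefSeq sequence of GRCm38.p6, minus strand, chr7:30879043-30879102.
Cd22: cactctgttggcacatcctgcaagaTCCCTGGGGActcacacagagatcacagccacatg

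**Figure D3:**
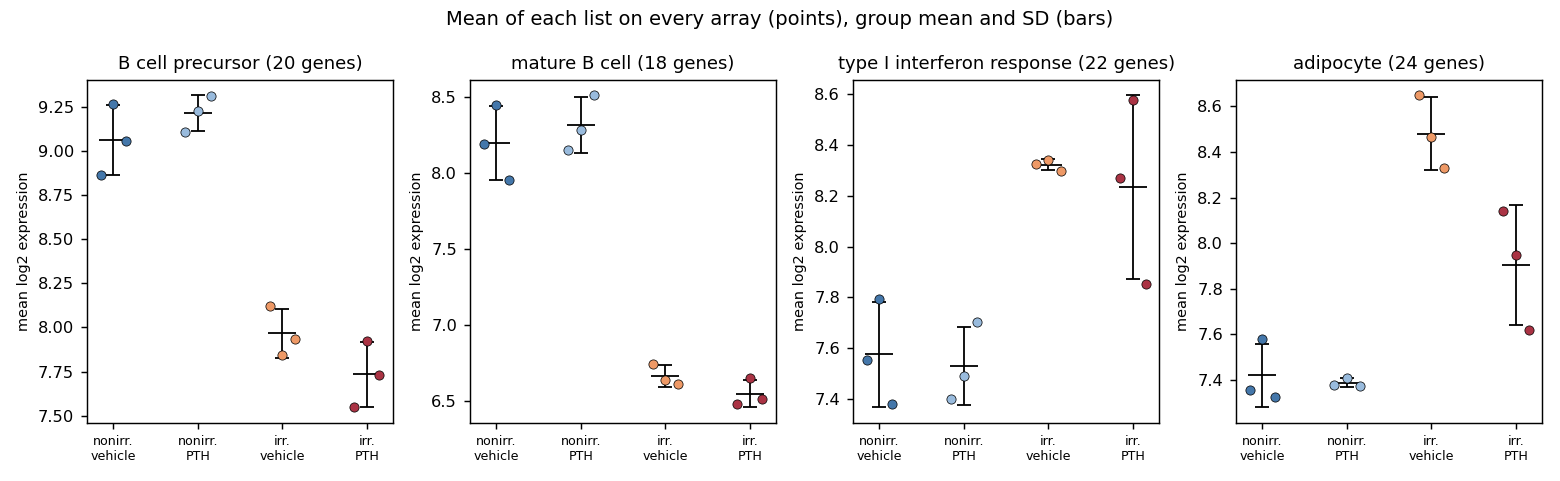
Mean log2 expression (vertical axis) of 4 gene lists on each of the 12 arrays, by group (horizontal axis), with the group mean and SD as bars. Both B cell lists lie below control on all irradiated PTH arrays (precursor 7.55 to 7.92 against 8.87 to 9.26), while the interferon and adipocyte lists lie above control on all of them.

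Other lymphoid and antigen-presenting lists changed in few members. Of 10 plasma cell genes, Jchain rose and Irf4 fell, and 8 were not called, beside 0.557% of all genes that rose and 1.14% that fell. Irf4, a factor of activated B cells and plasma cells, was at 7.31, 8.12 and 7.63 in the control arrays and at 5.70, 5.56 and 5.11 in the irradiated PTH arrays, a fall of 2.23 (SE 0.22, limma adjusted p = 3.65e-04). Its irradiated PTH mean of 5.46 lay below the cutoff for dim genes. The transcription factors Xbp1 (0.23) and Prdm1 (0.12), which drive antibody secretion, were not called. Of 19 T and NK cell genes, 2 fell, the adhesion molecule Cd2 (-1.91) and the coreceptor chain Cd8b1 (-0.79), beside 1.14% of all genes that fell. The median of that list was -0.26, and Cd3e, a chain of the T cell receptor complex, differed by -0.72 (limma adjusted p = 0.0661). The Cd8b1 call was lost without control array 1 or 3 or irradiated PTH array 1 or 2.

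Of 18 dendritic cell genes, 3 fell and 0 rose, beside 1.14% of all genes that fell. Siglech, a receptor of plasmacytoid dendritic cells, was at 8.16, 8.37 and 7.88 in the control arrays and at 6.36, 7.07 and 6.31 in the irradiated PTH arrays. It fell by 1.56 (SE 0.23, limma adjusted p = 0.00464) with no overlap. Cd209a (DC-SIGN) fell by 1.39 and the surface antigen Ly6d, found on plasmacytoid and early B cells, by 1.11. The chemokine receptor Ccr9 differed by -1.36 (limma adjusted p = 0.0546) and the DNA sensor Tlr9 by -0.90 (0.11), whereas Xcr1, a marker of cross-presenting dendritic cells, lay 0.87 above control without a call. Of 8 MHC class II genes only H2-Ob fell. H2-Aa and H2-Ab1, chains of the presenting molecule itself, differed by -0.33 and 0.10. Cd74, the invariant chain, differed by -1.17 (SE 0.48, limma adjusted p = 0.375), and its low value of 6.48 was on irradiated PTH array 3, against 8.51 and 8.75 on the others.

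The red cell, neutrophil and monocyte lists showed 1 call or none each, beside 1.70% of all genes called. Of 25 erythroid and haem synthesis genes, only Car1, a carbonic anhydrase of red cell precursors, changed. It was at 12.72, 12.16 and 12.01 in the control arrays and at 11.24, 11.10 and 10.71 in the irradiated PTH arrays and fell by 1.28 (SE 0.23, limma adjusted p = 0.015), a call lost without control array 2. Alas2, which starts haem synthesis in red cells, differed by -0.03 and the erythroid factor Klf1 by -0.01. Of 21 neutrophil genes only Csf3r, the receptor for G-CSF, fell, by 1.26 (SE 0.25, limma adjusted p = 0.0255), and this call was lost without control array 2, control array 3 or irradiated PTH array 1. Ly6g differed by -1.39 (limma adjusted p = 0.11), with irradiated PTH values of 9.05, 10.05 and 8.10, while the granule genes S100a8 (0.37) and Ltf (0.04) lay near control. Of 15 monocyte genes, 0 were called in limma and the median was -0.36.

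All 15 megakaryocyte and platelet genes lay below control, with a median of -0.45, though only Mmrn1 was called. Over all genes 49.6% lay above control and 1.14% fell. Mmrn1, the platelet protein multimerin, was at 8.29, 7.98 and 7.99 in the control arrays and at 6.63, 7.26 and 6.63 in the irradiated PTH arrays, and fell by 1.25 (SE 0.18, limma adjusted p = 0.00393). Clec1b, the platelet receptor for podoplanin, differed by -0.71 (limma adjusted p = 0.0729). Of 21 stem and progenitor genes, 2 fell, beside 1.14% of all genes: Kit, the receptor for stem cell factor, by 1.09 (limma adjusted p = 0.0342) and Angpt1, a ligand of the receptor Tek, by 0.75 (limma adjusted p = 0.0314). Each of these calls was kept in 4 of the 12 fits that left out 1 array. Of 18 genes of eosinophils, basophils and mast cells, Ear6, an eosinophil ribonuclease, rose by 0.89, a call kept in 7 of those 12 fits, and Kit is counted there again. Of 23 tissue macrophage genes 2 rose, Hmox1 by 0.97 and the scavenger receptor Marco by 0.79, beside 0.557% of all genes. Hmox1, which breaks down haem, was at 10.19, 10.74 and 10.34 in the control arrays and at 11.38, 11.56 and 11.23 in the irradiated PTH arrays, without overlap, though its call was lost after housekeeping centring. The Marco call was lost without control array 2 or 3 or irradiated PTH array 1 or 3, and the defining macrophage gene Adgre1 differed by -0.12.

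Genes induced by type I interferon rose in part. Of 22 measured, 6 rose and 0 fell (0.557% of all genes rose), and the median was 0.65. Ifit1, which binds viral RNA, was at 8.15, 8.74 and 8.03 in the control arrays and at 9.95, 10.27 and 9.57 in the irradiated PTH arrays, and rose by 1.63 (SE 0.25, limma adjusted p = 0.00535). Oas1a, a sensor of double-stranded RNA, rose by 1.33 from 7.12, 7.04 and 6.89 to 8.40, 8.44 and 8.22. Both genes were separate between the groups on every array. Rtp4 rose by 1.47, Oasl2 by 1.56, Rsad2 (viperin) by 0.95 and the RNA sensor Ifih1 by 0.88, with the calls of Oasl2 and Ifih1 kept in 6 and 5 of the 12 fits that left out 1 array. Others of the same list lay at control level, among them Mx1 (-0.17), Stat2 (-0.20) and Ifit2 (0.08). The mean of the list was 7.55, 7.79 and 7.38 in the control arrays and 8.27, 8.58 and 7.85 in the irradiated PTH arrays, so the 2 narrow-range arrays gave the lowest value of each group; the part of array range in this was not tested. Without irradiated PTH array 3 the list had 11 rises, and without control array 3, irradiated PTH array 1 or irradiated PTH array 2 it had 3.

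Of 12 genes induced mainly by interferon-gamma, the guanosine triphosphatase Irgm1 rose, by 1.08 (SE 0.20, limma adjusted p = 0.018), from 8.85, 8.56 and 8.06 to 9.56, 9.65 and 9.51. Over all genes 0.557% rose. The calls of Irgm1 and Rsad2 were each lost without control array 2 or 3 or irradiated PTH array 1 or 2. Cxcl9, a chemokine for T cells, lay 0.67 above control (limma adjusted p = 0.13). It was 0.85 lower than in irradiated vehicle marrow (SE 0.19, unadjusted p = 6.86e-04, limma adjusted p = 0.844). In the Ifi200 family of nuclear DNA-binding proteins, Ifi205 rose by 2.55 and Ifi209 fell by 1.60, and 7 of the 9 measured were not called. They form a multigene family, and whether their probe sets share signal was not tested.

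The interferon-stimulated response element core, GAAANNGAAA, to which the factor complex of the type I pathway binds, was searched on both strands of the same 250-base windows. It was present for 7 of 14 type I genes with a promoter sequence (50%) and 5 of 7 interferon-gamma genes (71.4%), against 936 of 27025 genes (3.46%). Of the type I genes that rose, 3 of 5 with a sequence held it. The 4 sequences below are those of the called genes with the core, from RefSeq GRCm38.p6 on the strand of the gene, with matches in capitals. They lie at chr19:34640760-34640838 (plus) for Ifit1, chr12:26456538-26456597 (minus) for Rsad2, chr5:120907526-120907570 (minus) for Oas1a and chr11:48871421-48871475 (minus) for Irgm1. In Oas1a and Irgm1 a pair of matches overlaps, in Ifit1 a pair stands apart, and in Ifit1 and Rsad2 the core is on the opposite strand, so that the capitals show its reverse complement.
Ifit1: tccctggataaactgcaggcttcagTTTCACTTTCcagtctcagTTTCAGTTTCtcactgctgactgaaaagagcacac
Rsad2: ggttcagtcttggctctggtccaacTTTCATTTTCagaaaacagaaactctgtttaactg
Oas1a: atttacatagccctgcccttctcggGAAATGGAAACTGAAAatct
Irgm1: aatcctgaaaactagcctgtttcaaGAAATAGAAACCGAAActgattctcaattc

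Of 23 chemokine and interleukin-1 genes, Ccl12 rose and Il1b fell, beside 0.557% and 1.14% of all genes. Ccl2 (0.40), Ccl7 (0.61) and Il1a (0.74) lay above control without a call. The antagonist Il1rn was at 7.44, 7.12 and 6.96 in the control arrays and 8.11, 7.85 and 7.61 in the irradiated PTH arrays, a difference of 0.68 (limma adjusted p = 0.0765). Of 17 acute phase genes, Serpina3n rose, and Steap4, a metalloreductase, rose by 0.86, a call kept in 6 of 12 fits that left out 1 array. The acute phase list had 2 rises in 17 (0.557% of all genes rose), 13 members above control (49.6% of all genes) and 8 above it without overlap (5.53% of all genes). Its mean was 6.33, 6.33 and 6.26 in the control arrays and 6.86, 6.75 and 6.70 in the irradiated PTH arrays, without overlap, and its median difference was 0.26, smaller than the shift that housekeeping centring made. Haptoglobin (Hp) lay 1.17 above control (limma adjusted p = 0.0675) and Saa1 0.03. Of 14 Toll-like receptor genes, 0 were called in limma, with Tlr3 at 0.91 (limma adjusted p = 0.0729).

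Among 14 genes of the RANKL, osteoprotegerin and interleukin-6 families, Osmr and Il6 rose, beside 0.557% of all genes. Osmr, the receptor for oncostatin M, was at 7.96, 7.42 and 7.63 in the control arrays and at 9.14, 8.81 and 8.65 in the irradiated PTH arrays, a rise of 1.20 (SE 0.17, limma adjusted p = 0.00393). Il6 was dim, at 4.502, 3.589 and 3.599 in the control arrays and at 4.93, 4.87 and 5.25 in the irradiated PTH arrays. Its rise of 1.12 (SE 0.24, limma adjusted p = 0.0345) was called in 2 of the 12 fits that left out 1 array. Tnfsf11, which encodes RANKL, the signal for osteoclast formation, differed by 0.30 (SE 0.15), and its decoy receptor Tnfrsf11b by 0.08.

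Of 20 p53 target genes, Eda2r, a death receptor, rose, beside 0.557% of all genes. It was at 4.35, 4.82 and 4.98 in the control arrays and at 5.80, 5.77 and 5.48 in the irradiated PTH arrays, a rise of 0.97 (SE 0.19, limma adjusted p = 0.0236) that was lost without control array 1 or 2 or irradiated PTH array 1 or 2. The control mean of Eda2r, 4.71, lay below the cutoff for dim genes. Mdm2, the feedback inhibitor of p53, differed by 0.20, and Rrm2b, a nucleotide reductase subunit, by -0.81 (limma adjusted p = 0.0892). Of 24 genes of DNA replication and mitosis, 0 were called in limma and the median was 0.01. Pcna, the replication clamp, was at 12.46, 12.21 and 12.27 in the control arrays and 12.44, 12.33 and 12.72 in the irradiated PTH arrays, with overlapping groups.

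Adipocyte genes lay above control in most members, but few were called. Of 24 measured, 21 lay above control, 4 rose (0.557% of all genes did) and 0 fell, with a median of 0.43. Fabp4, a fatty acid carrier of fat cells, was at 10.41, 10.30 and 10.26 in the control arrays and at 11.45, 11.45 and 11.77 in the irradiated PTH arrays. The values were tight in both groups, and Fabp4 rose by 1.23 (SE 0.14, limma adjusted p = 9.13e-04). Cidec, a protein of the lipid droplet surface, rose by 1.27 (SE 0.25, limma adjusted p = 0.0236) from 5.99, 6.10 and 6.07 to 7.97, 7.06 and 6.92. Plin1, which coats the droplet, rose by 0.63 and the desaturase Scd1 by 0.95. Adiponectin (Adipoq) lay 1.21 above control at 9.46, 9.01 and 10.01 against 8.78, 8.19 and 7.88 but was not called (limma adjusted p = 0.086), and the fat cell regulators Pparg (0.39) and Cebpa (-0.002) were not called either.

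The adipocyte calls were few and depended on single arrays. Only Fabp4 was called without each array in turn; the Cidec call was lost without control array 1, 2 or 3, and those of Plin1 and Scd1 were kept in 4 and 2 of 12 such fits. The list had 1 rise without control array 2 or 3, 2 without irradiated PTH array 1 or 2 or nonirradiated PTH array 1 or 3, and 0 after centring on housekeeping genes. In irradiated vehicle marrow the same list had 12 rises, beside 1.21% of all genes that rose there. The list's median difference from control there was 1.16, beside -0.026 over all genes. Its mean was 8.65, 8.46 and 8.33 on those arrays, 8.14, 7.95 and 7.62 on the irradiated PTH arrays and 7.36, 7.58 and 7.33 on the control arrays, so the irradiated PTH values lay between those groups without overlap. Between the irradiated groups 24 of 24 adipocyte genes were lower with PTH, beside 47.8% of all genes, with a median of -0.57 beside 0.01 over all genes. None of these 24 differences was called in limma (adjusted p at least 0.844). Several other lists leaned the same way. Lower with PTH were 18 of 20 B cell precursor genes, 18 of 21 neutrophil genes and 16 of 21 housekeeping genes (median -0.15). Some lists leaned the other way, with 3 of 15 megakaryocyte and platelet genes and 5 of 22 chondrocyte genes lower. Cidec was 1.06 lower with PTH (SE 0.25, unadjusted p = 0.00102) and Plin1 0.73 lower (SE 0.13, unadjusted p = 1.20e-04). Among 12 lipase and lipid hydrolase genes, Lipg and Abhd6 rose (0.557% of all genes did), and the droplet lipase genes Lipe (0.54) and Pnpla2 (0.11) were not called.

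Bone cell genes, on which PTH acts, changed in 2 members. Of 18 osteoblast genes only Mmp13 rose, and of 14 osteocyte and mineral matrix genes only Dmp1, beside 0.557% of all genes. Mmp13, a collagenase of osteoblasts and hypertrophic chondrocytes, was at 10.66, 10.35 and 10.66 in the control arrays and at 12.02, 12.03 and 11.41 in the irradiated PTH arrays. It rose by 1.26 (SE 0.18, limma adjusted p = 0.00382), beside 1.10 in irradiated vehicle marrow (limma adjusted p = 0.00761). Dmp1, a matrix phosphoprotein of osteocytes, was at 7.44, 7.59 and 7.68 in the control arrays and at 8.68, 8.98 and 9.20 in the irradiated PTH arrays, a rise of 1.38 (SE 0.24, limma adjusted p = 0.0128). On the irradiated vehicle arrays Dmp1 was at 7.79, 8.31 and 8.69, and on the nonirradiated PTH arrays at 8.88, 8.13 and 8.72, both above control in every array. Its differences from control there were 0.69 (limma unadjusted p = 0.0139, adjusted p = 0.207) and 1.01 (limma unadjusted p = 0.00126, adjusted p near 1), and neither was called. All nonirradiated PTH arrays gave the female pattern and no control array did. Between the irradiated groups Dmp1 was 0.69 higher with PTH (limma unadjusted p = 0.0141, adjusted p = 0.844). The Dmp1 call was lost without control array 2 and after centring on housekeeping genes.

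Bone sialoprotein (Ibsp), a mineral-binding protein, was at 10.67, 10.65 and 11.08 in the control arrays and at 11.83, 11.80 and 11.63 in the irradiated PTH arrays. The groups did not overlap, but the difference of 0.95 (SE 0.24) was not called (limma adjusted p = 0.0843). Fgf23, the phosphate-regulating hormone of osteocytes, lay 1.34 above control (SE 0.37, limma adjusted p = 0.12), at 9.03, 8.30 and 7.20 in the irradiated PTH arrays. Of the fits that left out 1 array, only that without irradiated PTH array 3 called it. In irradiated vehicle marrow Fgf23 rose by 2.09 over control (limma adjusted p = 0.0114). Collagen Col1a1 (-0.30), alkaline phosphatase Alpl (-0.06), the receptor Pth1r (0.19), sclerostin Sost (0.11) and Mepe (0.22) were not called. The signs of Col1a1, Alpl, Pth1r and Mepe turned under at least 1 other setting. Of 17 osteoclast genes and 22 chondrocyte genes, 0 were called in limma. The osteoclast pump subunit Atp6v0d2 lay 0.99 above control (limma adjusted p = 0.0814), and the tartrate-resistant phosphatase Acp5 at 0.04, a value whose sign also turned.

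**Figure D4:**
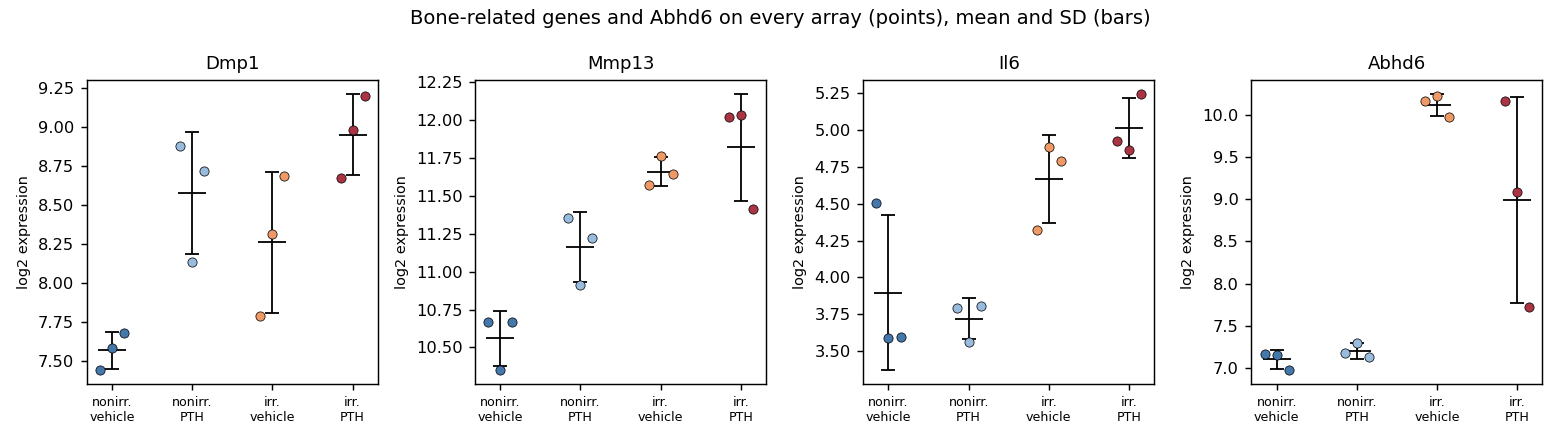
Log2 expression (vertical axis) of Dmp1, Mmp13, Il6 and Abhd6 on each of the 12 arrays, by group (horizontal axis), with the group mean and SD as bars. The irradiated PTH arrays lie above all nonirradiated vehicle arrays for each gene, and Abhd6 spreads from 7.72 to 10.17 among them.

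Of 25 genes known to respond to PTH or cyclic AMP, 0 rose and 2 fell, beside 0.557% and 1.14% of all genes. Pde4b, which degrades cyclic AMP, was at 6.91, 7.13 and 7.29 in the control arrays and at 5.87, 6.15 and 5.95 in the irradiated PTH arrays. It fell by 1.12 (SE 0.13, limma adjusted p = 9.97e-04), beside -0.86 in irradiated vehicle marrow. Rgs2, a brake on G protein signalling, fell by 0.94 (limma adjusted p = 0.0499), a call kept in 2 of 12 fits that left out 1 array. Early response genes Fos (0.09), Nr4a2 (-0.29) and Crem (0.03) and the growth factor gene Igf1 (0.09) were not called.

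Of 23 niche and stroma genes, Angpt1 alone was called, and Cxcl12 and Kitl, the signals that hold and feed stem cells, differed by -0.20 and 0.19. Of 22 endothelial genes, 0 were called in limma, 17 lay above control (49.6% of all genes) and 4 did so without overlap (5.53% of all genes). The median was 0.25, a value below the shift that housekeeping centring made, and Emcn, a sinusoid surface protein, lay 1.03 above control (limma adjusted p = 0.0888). Vegfa differed by 0.18. Of 16 skeletal muscle genes, markers of tissue that can come with flushed bone, 0 were called in limma, and the list means ranged from 6.23 to 7.13 in the control arrays and from 6.39 to 7.13 in the irradiated PTH arrays. Of 21 housekeeping genes, 0 were called in limma and the median was -0.03. Of the 572 genes in any list, 67 (11.7%) were among the 339 called, beside 1.70% of all genes tested; the lists were chosen with earlier results of these data known.

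**Figure D5:**
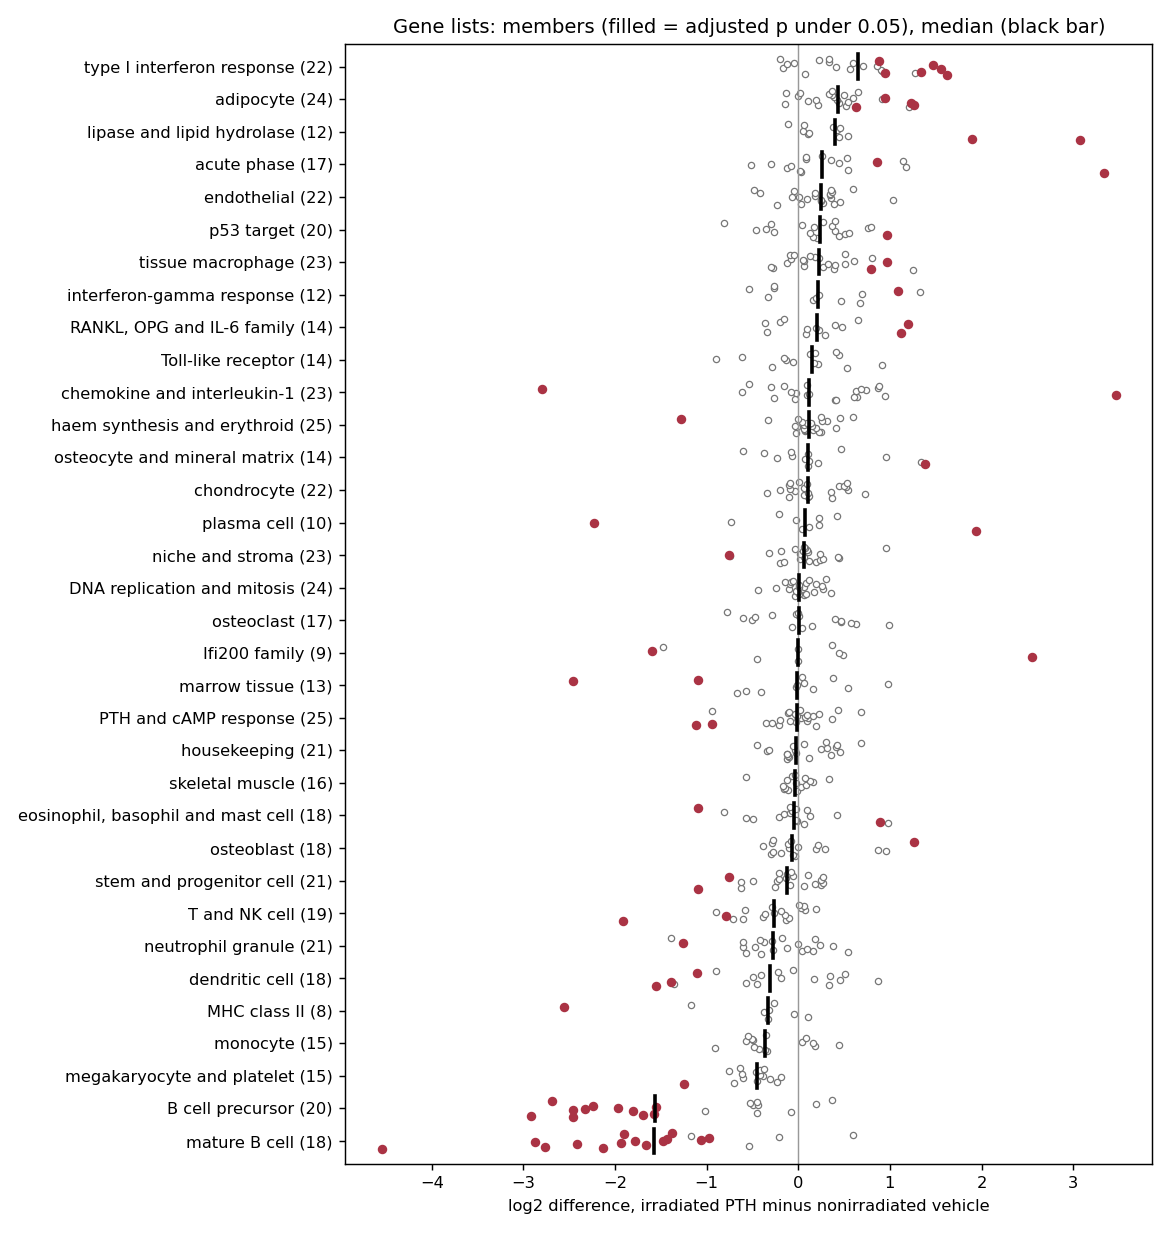
Log2 difference between irradiated PTH and nonirradiated vehicle marrow (horizontal axis) of every measured gene in 34 lists (one line each, number of genes in brackets), with called genes filled and the list median as a black bar. Filled points cluster on the negative side in the B cell precursor and mature B cell lists (medians -1.56 and -1.57), and the 6 filled points of the type I interferon list are all positive.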

How the data were processed

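Marrow RNA from 12 samples was measured on whole-transcript arrays, from biotinylated cDNA made from 100 ng of RNA. The authors deposited log2 values (the scale is inferred from their range); RMA, affy and limma are named, without versions, per the submitters' processing notes. Whether all arrays were normalized together, and the genome build of the probe sets, are not given in the sources used here. Of 35556 rows, 21789 had 1 gene symbol, 1621 several and 12146 were not listed in the platform annotation; the brightest row over the 12 arrays stood for each of 19938 genes (999 had several rows).

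Differences were fitted with limma 3.58.1 (R 4.3.3) on all 12 arrays in 4 groups, so that the groups shared 1 estimate of spread (8 residual degrees of freedom, median SE of a difference 0.17), with Benjamini-Hochberg adjustment over all genes and a threshold of 0.05. On data simulated with independent noise for each gene and array, 4.77% of the calls of this fit were false. The simulation held no narrow-range array, sex difference or variation shared between genes, so it cannot give the false share with those present. Array number limits the precision. Named genes are the 12 largest rises and falls without overlap (passing over 15 called predicted genes, antigen receptor segments and the like), the 4 members of each of 34 lists with the smallest p and 14 bone and marrow genes; other list members are named for their role, after their values were seen. The comparison, lists and alternatives were chosen with earlier results of these data known. Replicate numbers did not pair the samples. Alternatives changed the scaling, weights and variance model, the genes, rows and samples used, and added a sex term or left out arrays.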

Additional observations from a re-analysis of the deposited data

Results flagged for a closer look

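Array rows outside the named genes also differed between irradiated PTH and nonirradiated vehicle marrow. In a limma fit over all 35556 rows, 14 rows that the platform annotation does not list were higher and 23 were lower at an adjusted p under 0.05, which is 0.305% of the 12146 such rows. The largest of these differences were 2.48 and -3.27 on the log2 scale. Among the 1621 rows with several symbols, 3 were higher and 11 lower (0.864%), with extremes of 2.29 and -3.03. The rows with 1 symbol gave 62 higher and 151 lower in the same fit (0.978%). The genes behind the unlisted rows are not named here.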

How the results depend on the processing

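The 339 calls (111 rises, 228 falls) became 541 with 224 rises under array weights, 65 with 21 rises and 44 falls with only the groups compared in the fit, and 184 with 54 rises and 130 falls when a 2-fold change was also required. Centring on housekeeping genes gave 31 rises and 397 falls. Leaving out 1 array gave 159 to 374 calls, 51 to 187 rises and 105 to 255 falls. The labels do not say whether replicate numbers pair the samples. Same-numbered deviations correlated at -0.40, 0.44 and -0.0059, and 1 of 3 irradiated PTH arrays correlated best with its own number. With 3 arrays in a group these values cannot settle whether the numbers pair the samples. A replicate block gave 429 calls with 145 rises and 284 falls and kept all 62 named calls. Medians of the B cell precursor, mature B cell and adipocyte lists were -1.829, -1.835 and 0.169 after housekeeping centring. With only the groups compared, 7 mature B cell genes fell, and 1 adipocyte and 2 interferon genes rose. The 4 adipocyte rises became 0 under housekeeping centring, 2 with a sex term and 2 at 2-fold, and 1 to 5 without 1 array. The 6 interferon rises became 3 to 11 without 1 array. Of the 62 named calls, 43 held in all 12 fits without 1 array and 33 under all other settings, and none of the 62 changed sign. With only the groups compared 35 of the 62 held, after housekeeping centring 49, without both narrow-range arrays 51 and with a sex term 56. Uncalled genes that did were, under housekeeping centring, Mcm5 (-0.0093), Pcna (-0.076), Mepe (-0.048), Pth1r (-0.072), Tnfrsf11b (-0.18), Kitl (-0.072), Vegfa (-0.084), Igf1 (-0.17) and Acp5 (-0.23). Without both narrow-range arrays they were Cdk1 (-0.15), Chmp2a (-0.017), Myh2 (0.012), Col1a1 (0.27) and Alpl (0.74). Array weights turned Pvalb (0.19) and Alpl (0.25), and Acp5 was -0.031 after quantile normalization and -0.12 with a sex term. Leaving out 1 array gave ranges of -0.33 to 0.10 for Myh2, -0.58 to 0.055 for Col1a1, -0.47 to 0.52 for Alpl, -0.31 to 0.34 for Acp5 and -0.069 to 0.22 for Igf1. The causes were not tested.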

Other observations

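The genes described here were chosen after their values were seen, and all differences are irradiated PTH minus nonirradiated vehicle marrow in limma, each called at an adjusted p under 0.05. Outside the lists, Aff3 fell by 1.90, the chromatin organiser Satb1 by 1.67, Foxo1 by 1.31, the NF-kappa-B subunit Rel by 1.23, Myb by 1.17 and Foxp1 by 1.11. Foxo1, which sustains Rag and Il7r expression in B cell precursors, was at 8.02, 8.39 and 8.06 in the control arrays and at 6.87, 7.19 and 6.50 in the irradiated PTH arrays. Siglecg, an inhibitory receptor of B cells, fell by 1.79, the kinase Syk by 1.43 and Cd180 by 1.30. Il2ra, a chain of the interleukin-2 receptor, fell by 1.78 from 7.98, 7.84 and 7.75 to 6.07, 6.31 and 5.84. In the Cd300 family of myeloid receptors 3 of 7 fell (Cd300ld by 1.57, Cd300lb by 1.24 and Cd300c by 0.77), and in the Slamf family 2 of 5 (Slamf6 by 1.86 and Slamf7 by 1.66), beside 1.14% of all genes; these families too were picked for their called members. All 8 Gimap genes, small guanosine triphosphatases of lymphocytes, lay below control with a median of -0.67, and 2 of them were called, beside 49.6% of all genes above control. Cxcr4, the receptor for Cxcl12, fell by 0.72, from 9.69, 9.64 and 9.81 to 9.05, 8.97 and 8.97. Of the falls named in this paragraph, those of Siglecg, Il2ra, Slamf6 and Slamf7 were still called with only the groups compared in the fit, and the others, Aff3, Satb1, Foxo1, Rel, Myb, Foxp1, Syk, Cd180, the Cd300 genes and Cxcr4, were not. The Cd300lb call was also lost with a term for sex.

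Some single genes outside the lists rose. Socs2, a feedback inhibitor of growth hormone signalling, rose by 1.25 and the receptor Ghr by 1.07, beside Cish. Socs2 was at 7.25, 7.19 and 7.48 in the control arrays and at 8.53, 8.38 and 8.76 in the irradiated PTH arrays, and was called in all 12 fits without 1 array but not after housekeeping centring (limma adjusted p = 0.0686). Cfb, complement factor B, rose by 1.36 (SE 0.15) and Ifitm1 by 1.34. Rises were also called in Ccn1 (1.37), Sema3a (1.32), Efemp1 (0.94), Cav1 (0.94) and the thrombin receptor F2r (0.76). The metal-binding protein gene Mt1 rose by 0.995 and the antioxidant gene Srxn1 by 0.95, calls kept in 7 and 3 of the 12 fits without 1 array. The calls of Ghr, Mt1, Srxn1, Efemp1, Cav1 and F2r were lost after housekeeping centring as well (limma adjusted p from 0.109 to 0.361), while those of Cfb, Ifitm1, Ccn1 and Sema3a were kept. With only the groups compared, Socs2, Cfb and Mt1 were still called, and Ghr, Ifitm1, Ccn1, Sema3a, Efemp1, Cav1, F2r and Srxn1 were not. The Srxn1 call was also lost with a term for sex. Without both narrow-range arrays the calls of Cd300c, Cd300lb, Foxp1, Myb, Syk, F2r, Ghr, Ifitm1 and Mt1 were lost. No test of a cause was made for any of these differences.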
